A study of Homo sapiens with 17 samples.

Results

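The 10 human hairpins described here, MIR877, MIR1224, MIR1225, MIR1226, MIR1227, MIR1228, MIR1229, MIR1236, MIR1237 and MIR1238, are annotated as mirtrons, microRNA precursors that are whole introns. Their members were the alignments of 16 to 28 nt lying within the 10 hairpin windows on hg19, 97 of the 8815082 alignments of that length and of the 14415896 alignments of any length in the deposited tables. Within the windows the choice used position and length only, but the members were chosen with earlier results of these data known. The study sequenced small RNAs of K562 cells, a human erythroleukemic cell line, that all carry an inducible short hairpin RNA against Drosha. Cells were kept in 1 µg/mL doxycycline (Dox) for 3, 13 or 31 days, and parallel control cultures, titled water, received none, in 8 Dox and 8 water libraries: 2 independent cultures of each kind at 3 d (replicates 1 and 3) and 3 at each later time. 1 untreated library was not analysed here. The controls carry the same hairpin construct but saw no Dox, so an effect of Dox itself and an effect of the knockdown cannot be told apart, and small RNA libraries do not measure the Drosha mRNA.

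Most microRNAs are cut from a primary transcript by the nuclear Microprocessor, in which Drosha is the RNase, and then by Dicer in the cytoplasm. A mirtron reaches the Dicer step by another way: the spliceosome releases a short intron, the lariat is opened by the debranching enzyme, and the linear intron folds into a hairpin whose ends are the splice sites. The hairpin therefore begins with the GU of a 5′ splice site and ends with the AG of a 3′ splice site. Whether each of the 10 hairpins reaches Dicer by this route was not tested here. The host genes are ABCF1 (MIR877), a ribosome-associated ATP-binding protein, DHX30 (MIR1226), an RNA helicase, PLEKHJ1 (MIR1227), RPS6KA4 (MIR1237), a stress-activated kinase, MGAT4B (MIR1229), an enzyme of N-glycan branching, NELFE (MIR1236), a subunit of the negative elongation factor, ATG4D (MIR1238), an autophagy protease, LRP1 (MIR1228), an endocytic receptor, PKD1 (MIR1225), which encodes polycystin-1, and VWA5B2 (MIR1224).

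The hairpins of MIR877 and MIR1226 held most of the alignments and are shown whole, as RNA 5′ to 3′ from RefSeq (GRCh38.p14), with the annotated mature arms in capitals.
MIR877: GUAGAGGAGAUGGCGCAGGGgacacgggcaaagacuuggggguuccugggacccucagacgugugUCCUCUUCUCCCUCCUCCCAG
MIR1226: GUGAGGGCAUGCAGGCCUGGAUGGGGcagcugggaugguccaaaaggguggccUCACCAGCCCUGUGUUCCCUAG
On hg19 they lie at chr6:30552109-30552194 and chr3:47891045-47891119, both on the plus strand. All 10 hairpins matched a RefSeq entry. They were 69 to 102 nt long, all 10 began with GU and ended with AG, and all 10 coincided base for base with an intron of the GENCODE v29 annotation of GRCh38, such as intron 13 of 24 of ABCF1 for MIR877 and intron 21 of 22 of DHX30 for MIR1226.

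The annotated mature arms whose groups passed the test at 3, 13 or 31 d are shown for their seeds, bases 2 to 8, in capitals, since the seed sets which mRNAs a microRNA pairs with.
hsa-miR-877-5p: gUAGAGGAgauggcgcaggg
hsa-miR-877-3p: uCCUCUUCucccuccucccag
hsa-miR-1226-3p: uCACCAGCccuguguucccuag
hsa-miR-1227-3p: cGUGCCACccuuuuccccag
hsa-miR-1229-3p: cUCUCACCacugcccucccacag
hsa-miR-1237-3p: uCCUUCUGcuccgucccccag
Of the annotated 5p arms 8 of 10 begin at the first intron base, the exceptions being those of MIR1236 (position 2) and MIR1237 (position 50), and 8 of 10 3p arms end at the last, the exceptions being those of MIR1228 and MIR1238. The 20 mature arms had 20 different seeds, so no seed was shared between members. Of the 10 3p arms 8 were at least 70% pyrimidine, as the tract before a 3′ splice site is, and miR-877-3p was 90.5% pyrimidine. The other 8 windows on hg19 are chr3:183959193-183959277 (plus, MIR1224), chr16:2140196-2140285 (minus, MIR1225), chr19:2234061-2234148 (minus, MIR1227), chr12:57588286-57588358 (plus, MIR1228), chr5:179225278-179225346 (minus, MIR1229), chr6:31924616-31924717 (minus, MIR1236), chr11:64136074-64136175 (plus, MIR1237) and chr19:10662798-10662880 (plus, MIR1238).

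Each of the 8 tables belongs to 1 Dox and control pair and gives, for each alignment, the authors' ratio of 1 library to the other. Neither the tables nor the labels say which library is on top. "Higher" below means only that the numerator library exceeded the denominator library (a log2 ratio above 0), and no ratio is read as Dox over control. The alignment stack with the highest median ratio was the same in 8 of 8 tables, at the 5′ end 31511242 on the plus strand of chromosome 5, at ratios of 147 to 4432. Of the 16 to 28 nt alignments 79.0% to 93.3% in a table had a ratio of 0, which has no logarithm and was left out of every log2 value. No ratio was infinite, so an alignment seen only in the numerator library had no entry. The log2 median over 12097 groups of alignments with a common 5′ end and a value in every table differed between the pairs, at 0.85 and 1.34 at 3 d, 0.75, -0.26 and -0.38 at 13 d, with 0.04, 0.05 and -0.58 at 31 d. Read depths are not known from the ratios, so no counting interval is given.

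Mirtron alignments were concentrated in a few hairpins. MIR877 had 49 of the 97 and MIR1226 22. MIR1229 had 8, MIR1225 7, MIR1236 and MIR1237 3 each, MIR1227 and MIR1228 2 each, and MIR1238 1. MIR1224 had 0. Over the 8 tables the 97 alignments had 331 entries, of which 251 had a ratio above 1, 24 a ratio between 0 and 1 and 56 a ratio of 0. The share at 0 was 7.89% to 29.7% in a table, against 79.0% to 93.3% over all alignments of that length. The mirtron alignments and all alignments were not matched for abundance, which is not known from the ratios, and its part in this gap was not tested. Among entries above 0, the share above 1 was 73% to 100% for the mirtrons, against 39.3% to 70.5% over all alignments of that length, and it was higher for the mirtrons in 8 of 8 tables. Of the 251 entries above 1, MIR877 had 178 and MIR1226 52, while MIR1225 and MIR1236 had 0. Alignments of 1 hairpin are not independent, so these shares mostly describe 2 hairpins. An alignment above 0 in all 8 tables was found in MIR877 (13) and MIR1226 (2) only.

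Of the 97 member alignments 45 were assigned, by the larger part of their length, to the annotated 5p arms, 28 to the 3p arms and 24 to neither, 18 of these 24 in MIR877. On the arms many alignments shared a 5′ end. In MIR877 12 lengths from 16 to 27 nt started at intron position 1, the first base after the splice site, and a second series of 11 lengths started at position 2. In MIR1226 the 5p series with values in all 8 tables started at position 2, 1 nt downstream of the annotated end, and ran over 8 lengths from 21 to 28 nt. This shift moves the seed by 1 base: the 25 nt form from position 2, with bases 2 to 8 in capitals, reads as follows.
MIR1226 5p from position 2: uGAGGGCAugcaggccuggaugggg
The 4 lengths of MIR1226 that started at the annotated position 1 had a group value in 3 tables only. On the 3p side the groups with the most values started at the annotated base for MIR877 (position 66), MIR1226 (54), MIR1227 (69), MIR1229 (47), MIR1237 (82) and MIR1238 (62), at position 83 rather than 81 for MIR1236 and at 53 rather than 52 for MIR1228.

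**Figure D1:**
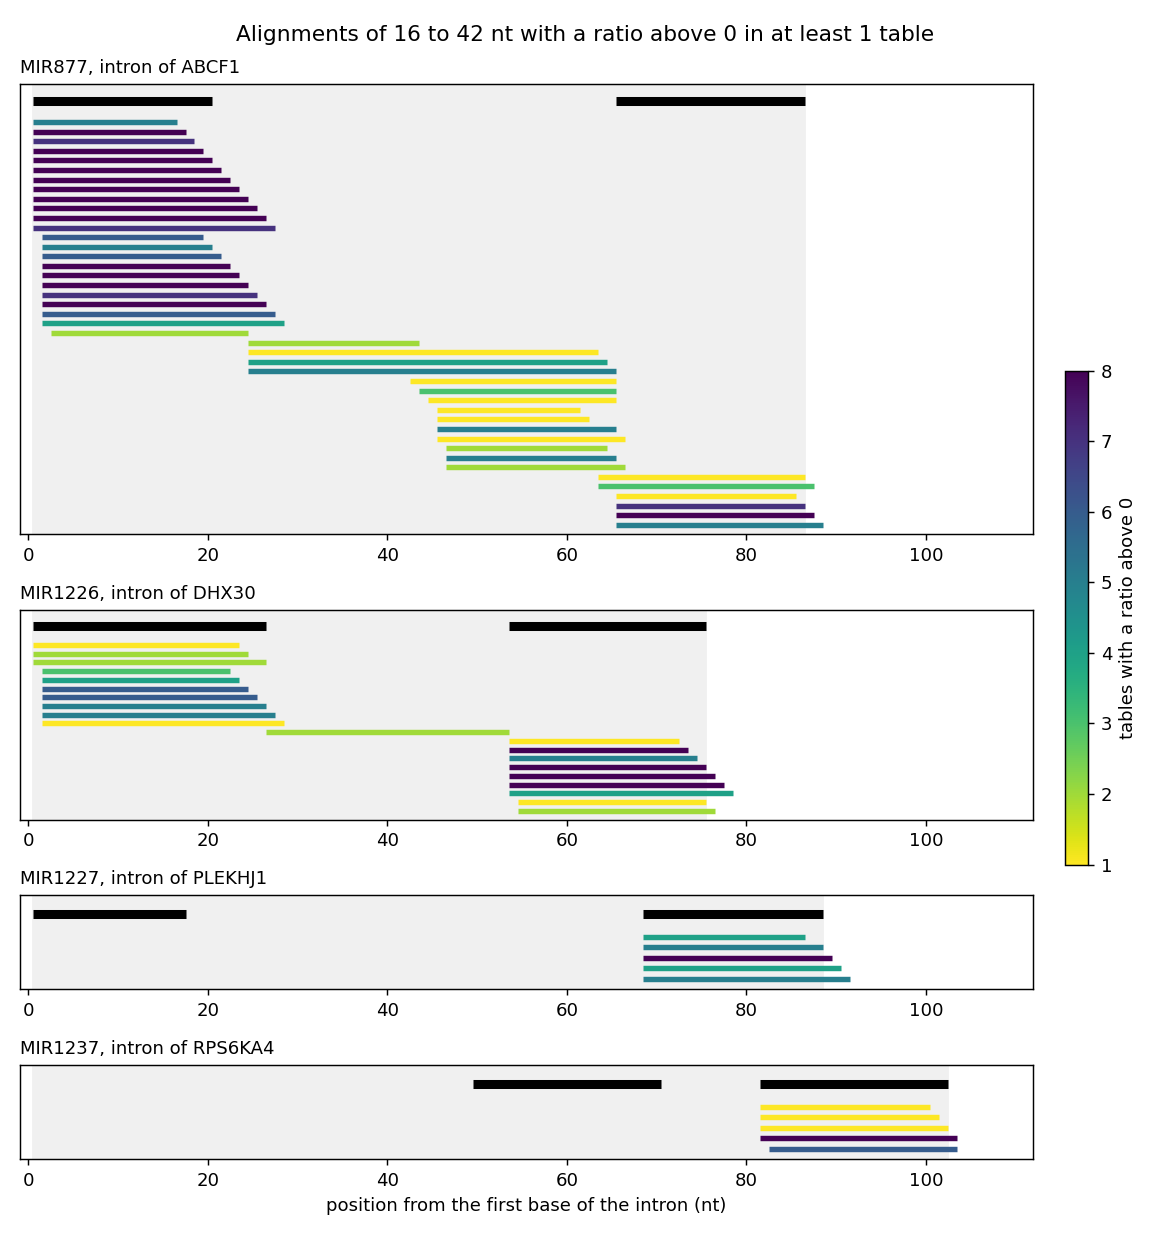
Alignments of 16 to 42 nt with a ratio above 0 in at least 1 table, drawn along 4 introns by position from the first intron base (nt). The grey field is the intron, black bars are the annotated mature arms, and the colour gives the number of the 8 tables with a ratio above 0. MIR877 has 2 stepped 5p series at positions 1 and 2, and the 3p alignments of all 4 hairpins run past the end of the grey field.

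The aligned 3′ ends on the 3p arms did not all stop at the splice site. Besides the 97 members, 32 alignments of 16 to 28 nt began within the hairpins and ran past the last intron base, 16 of them by exactly 1 nt. On the 3p arms the end 1 nt past the intron had 63 table entries in 8 hairpins, 58 with a ratio above 0. The intron's own last base had 30 entries in 6 hairpins, 27 above 0, and the end 2 nt past it had 27 entries, 19 above 0. The form 1 nt past the end was above 0 in 8 of 8 tables for MIR877 (22 nt), MIR1226 (23 nt), MIR1227 (21 nt) and MIR1237 (22 nt), and in 5 for MIR1229 (24 nt) and MIR1236 (21 nt). The exon that follows begins with G at 6 of the 10 introns, among them those of MIR877, MIR1226, MIR1229 and MIR1237, with C after MIR1227 and MIR1236 and with T after MIR1225 and MIR1238. The tables give positions but no bases, so whether the extra base was read as the exon's base was not tested. The values of 5′ end groups below include such alignments. With alignments within the intron alone, the MIR877 3p group had values in 7 tables, at log2 ratios of 1.81 to 5.78, and the MIR1226 3p group in 8, at 1.40 to 4.39. The MIR1227 3p group then had 7 values, from -0.18 (replicate 1 of 31 d) to 3.16, and the MIR1229 3p group 5, from 0.70 to 3.11. The MIR1237 3p group had 1, at 2.64, and those of MIR1236 and MIR1238 had 0.

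**Figure D2:**
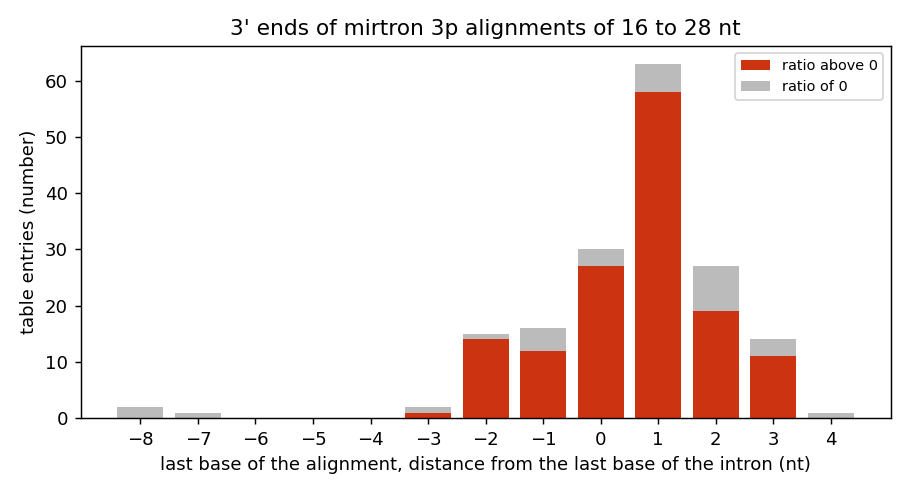
Number of table entries of 3p alignments of 16 to 28 nt in the 10 introns, by the distance of the last aligned base from the last intron base (nt). Red is a ratio above 0 and grey a ratio of 0. The tallest bar, 63 entries, is 1 nt past the intron.

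The 5p arm of MIR877 had values in all 8 tables and the highest mean log2 ratio of the tested mirtron groups at 13 d and 31 d. Its group value, the median log2 ratio over the lengths from position 1, was 1.09 and 2.34 in the pairs of 3 d, 4.15, 5.34 and 3.62 at 13 d, with 3.58, 2.94 and 4.30 at 31 d. Every pair was above 0, and the 6 pairs of 13 d and 31 d all lay above the 2 of 3 d. In the limma fit over all 5′ end groups, which shares the spread of all groups, the mean log2 ratio was 1.72 ± 0.97 at 3 d (SE, n = 2, adjusted p = 0.32), 4.37 ± 0.80 at 13 d (n = 3, adjusted p = 0.000395) and 3.61 ± 0.80 at 31 d (n = 3, adjusted p = 0.00388). It passed the adjusted threshold of 0.05 at 13 d and 31 d. The limma call of 31 d was not made without replicate 3 of 31 d (3.26 ± 1.12, adjusted p = 0.128) or with the group's own variance alone (adjusted p = 0.0985).

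The single MIR877 5p alignment named by rule, 22 nt from position 1 (chr6:30552109-30552130), had ratios of 2.46 and 2.5 at 3 d, 15.2, 38.8 and 24.7 at 13 d, with 32.7, 7.19 and 18.1 at 31 d. All 6 later pairs exceeded the 2 early ones. The 23 nt form reached the highest ratio of these lengths, 100.5, in replicate 2 of 13 d, and its limma mean log2 ratio at 13 d was 5.46 ± 1.11 (SE, n = 3, adjusted p = 0.000432). At 3 d the limma mean log2 ratios (n = 2) tended to be higher at longer lengths. They were -0.06 to 0.78 at 17 to 19 nt and 1.31 to 2.16 at 20 to 23 nt. At 24 to 26 nt they were 2.41 to 3.74. The 16 nt form, at 1.82, lay outside that order, and a trend with length was not tested. As ratios the 16 nt form had 2.46 and 5.07, the 19 nt form 0.51 and 1.82 and the 24 nt form 9.25 and 19.3. The 19 and 24 nt forms had ratios above 4 in every later pair. The longest, 27 nt, had 99.6, 45.5 and 38.4 at 13 d but 9.27, 0.18 and 32.04 at 31 d, where replicate 2 was the only pair below 1. Replicate 2 of 31 d was also the lowest of the 31 d pairs at every length from 22 to 27 nt.

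**Figure D3:**
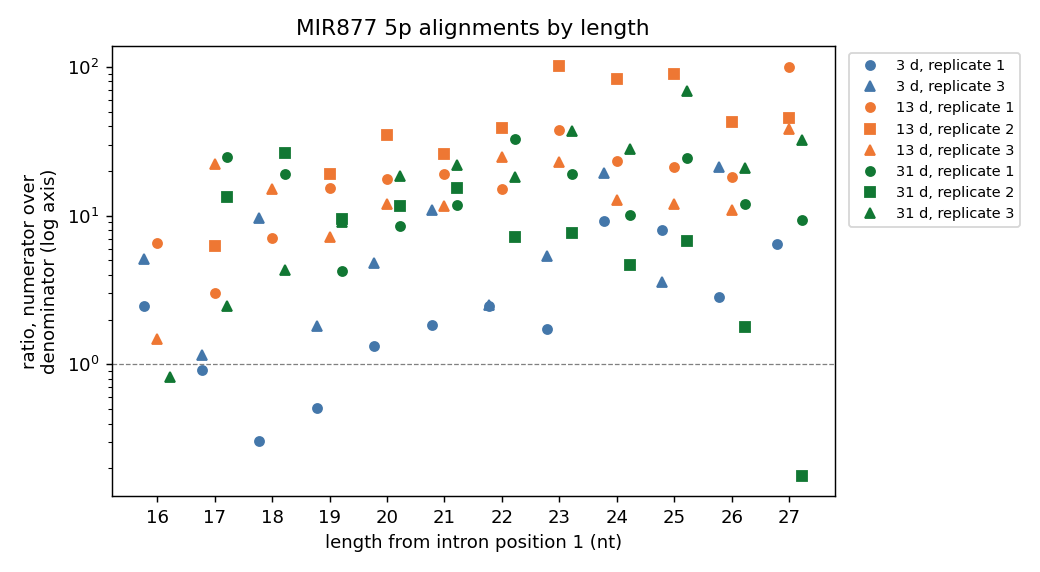
Ratio (log axis) of each MIR877 alignment starting at intron position 1, by length (nt), in each of the 8 pairs. Colour is the time and the symbol the replicate. At 22 nt the 6 pairs of 13 d and 31 d lie between 7.19 and 38.8, and the pairs of 3 d at 2.46 and 2.5.

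The second MIR877 5p series, from position 2, had log2 ratios of 2.27 and 2.34 at 3 d, 2.39, 3.98 and 0.64 at 13 d, with 1.04, 1.06 and 2.67 at 31 d. All 8 pairs were above 0 and the days overlapped. Its mean passed at 13 d (2.34 ± 0.82, SE, n = 3, limma adjusted p = 0.0407) but not at 3 d (2.30 ± 1.00, n = 2, adjusted p = 0.174) or 31 d (1.59 ± 0.82, n = 3, adjusted p = 0.302), and the difference between the series at positions 1 and 2 was not tested. The 13 d call was not made without replicate 3 of 13 d or with the group's own variance alone.

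The 3p arm of MIR877 had log2 ratios of 1.43 and 3.47 at 3 d, 1.81, 4.01 and 2.51 at 13 d, with 2.69, 3.25 and 4.14 at 31 d. All 8 pairs were above 0 and the days overlapped. The limma means were 2.45 ± 0.99 at 3 d (SE, n = 2, adjusted p = 0.137), 2.78 ± 0.81 at 13 d (n = 3, adjusted p = 0.014) and 3.36 ± 0.81 at 31 d (n = 3, adjusted p = 0.00857). The calls were not made at 13 d without its replicate 2 (2.16 ± 1.10, adjusted p = 0.262) or 3 (2.91 ± 1.10, adjusted p = 0.111), nor at 31 d without its replicate 2 (3.41 ± 1.05, adjusted p = 0.065) or 3 (2.97 ± 1.12, adjusted p = 0.197), and with the group's own variance alone the adjusted p were 0.0806 and 0.166.

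Both arms of MIR1226 had values in all 8 tables. The 3p group, the arm that carries hsa-miR-1226-3p, had log2 ratios of 0.75 and 3.23 at 3 d, 4.05, 4.91 and 2.34 at 13 d, with 2.21, 2.56 and 3.13 at 31 d, above 0 in every pair. The 5p group had 0.82 and 0.18 at 3 d, 2.02, 2.64 and 0.25 at 13 d, with 1.36, -0.75 and 0.62 at 31 d. The 0.82 of replicate 1 of 3 d came from the 24 and 27 nt forms only (ratios of 1.69 and 1.84). The 21, 22, 23, 25 and 26 nt forms had a ratio of 0 there and were left out. The 5p value was below the 3p value in 7 of 8 pairs. The difference between the arms was not tested. For 3p the limma mean was 3.77 ± 0.81 at 13 d (SE, n = 3, adjusted p = 0.00166). It was 1.99 ± 1.00 at 3 d (n = 2, adjusted p = 0.252) and 2.63 ± 0.81 at 31 d (n = 3, adjusted p = 0.0526), which did not pass. For 5p the means of 0.50 ± 0.99, 1.64 ± 0.81 and 0.41 ± 0.81 did not pass at any day (adjusted p = 0.824, 0.158 and 0.852). The 3p value of 13 d was 4.48 without replicate 3 of 13 d, and its call was not made without replicate 2 (3.20 ± 1.10, adjusted p = 0.0626) or with the group's own variance alone (adjusted p = 0.0598). The 31 d mean passed under 10 of 19 other settings, among them with each table's median subtracted (2.79 ± 0.82, adjusted p = 0.021).

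MIR1227 and MIR1237, whose member alignments all lay on the 3p arm, had a narrow spread between the pairs of a day in the groups from their annotated 3p start. MIR1227 3p had log2 ratios of 2.17 and 2.68 at 3 d, 2.70, 3.13 and 3.16 at 13 d, with 1.35, 1.57 and 1.67 at 31 d. MIR1237 3p had 2.79 and 3.19 at 3 d, 2.85, 2.77 and 2.06 at 13 d, with 1.04, 1.32 and 1.42 at 31 d. In both, every pair was above 0 and the 31 d pairs lay below all others. The SD over the pairs of a day was 0.16 to 0.36 for MIR1227 and 0.20 to 0.44 for MIR1237, and the limma SE of 0.78 to 0.96, drawn from all groups, is wider.

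For MIR1227 3p the limma mean was 3.00 ± 0.78 at 13 d (SE, n = 3, adjusted p = 0.00668). It was 2.43 ± 0.96 at 3 d (n = 2, adjusted p = 0.126) and 1.53 ± 0.78 at 31 d (n = 3, adjusted p = 0.299), neither past the threshold. The call was not made without replicate 2 (2.93 ± 1.10, adjusted p = 0.093) or 3 (2.91 ± 1.10, adjusted p = 0.111) of 13 d. The 21 nt form that ends 1 nt past the intron had ratios of 4.51 and 20.3 at 3 d, 6.75, 16.7 and 8.40 at 13 d, with 2.87, 5.90 and 12.1 at 31 d.

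MIR1237 3p passed at 3 d (2.99 ± 0.96, SE, n = 2, limma adjusted p = 0.0458) and at 13 d (2.56 ± 0.78, n = 3, adjusted p = 0.0189) but not at 31 d (1.26 ± 0.78, n = 3, adjusted p = 0.417). The 3 d call was lost under 11 of 18 other settings. These were 7 of the 8 fits without 1 pair (all but replicate 2 of 31 d), which gave 2.79 to 3.19 with limma adjusted p of 0.055 to 0.606, and 4 others, among them with each table's median subtracted (1.89 ± 0.99, adjusted p = 0.146). At 13 d the call was not made without its replicate 1 (2.42 ± 1.07, adjusted p = 0.129), 2 (2.46 ± 1.10, adjusted p = 0.183) or 3 (2.81 ± 1.10, adjusted p = 0.127). A single MIR1237 alignment at position 83 ended 1 nt past the intron, so it was not among the 97 members. The alignment spread more widely, with log2 ratios of 4.02, 1.51 and 4.23 at 13 d, with -0.96, 0.53 and 3.96 at 31 d. It was called at 13 d (3.25 ± 0.88, SE, n = 3, limma adjusted p = 0.00957) but not at 31 d (1.18 ± 0.88, n = 3, adjusted p = 0.525). Its 13 d call was not made without replicate 3 of 13 d or with its own variance alone.

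MIR1229 and MIR1236 had values in fewer tables. MIR1229 3p had 2.60 in replicate 3 of 3 d, 0.70 and 2.73 in replicates 1 and 3 of 13 d, and 2.15, 4.003 and 3.84 at 31 d, all above 0. Only 31 d could be tested, with a limma mean of 3.33 ± 0.82 (SE, n = 3, adjusted p = 0.0111). That call was not made without replicate 2 (3.00 ± 1.05, adjusted p = 0.152) or 3 (3.08 ± 1.12, adjusted p = 0.168) of 31 d or with the group's own variance alone (adjusted p = 0.341), and the value was 3.92 without replicate 1. MIR1236 3p, from position 83, had 3.11, 1.45 and 0.84 at 13 d and 0.78 and 1.43 in replicates 1 and 3 of 31 d. Its 13 d mean of 1.80 ± 0.82 did not pass (n = 3, limma adjusted p = 0.126).

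The remaining hairpins had few values or none. MIR1238 3p had values in 3 tables, with log2 ratios of 0.11 and 3.13 in replicates 1 and 2 of 13 d and -0.28 in replicate 3 of 31 d. MIR1228 3p had 1 value, -0.90 in replicate 2 of 31 d, and MIR1229 5p 1, 1.04 in replicate 1 of 31 d. The 7 alignments of MIR1225 had a ratio of 0 in each of their 7 entries, and MIR1224 had no member alignment. None of these could be tested.

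**Figure D4:**
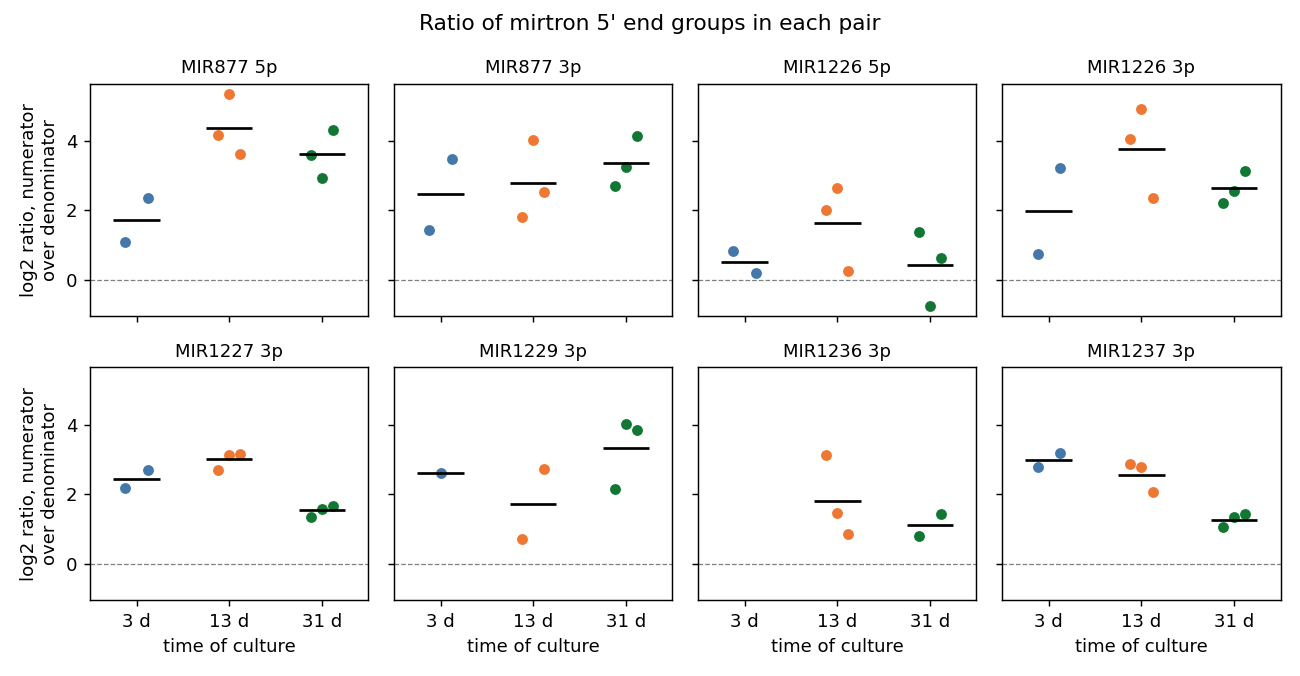
Log2 ratio (numerator over denominator) of the 8 named mirtron 5′ end groups, 1 an arm, with values in 5 or more tables, for each pair at 3, 13 and 31 d. Points are pairs, and bars the mean of the plotted pairs. All points of MIR877 5p lie above 0, with those of 13 d and 31 d above those of 3 d, and the points of MIR1226 5p lie around or above 0.

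Of the 50 mirtron groups 28 had a value in at least 1 table and 7 in all 8. A group could be tested at a day only if some alignment of it had a ratio above 0 in every pair. At 3 d 1 of 7 tested groups was higher and 0 lower, where 6.25% of all 41939 groups were higher and 1.22% lower. At 13 d 8 of 10 tested groups were higher and 0 lower, against 9% and 9.12% of 32828 groups. They belonged to 4 hairpins, MIR877 (positions 1, 2, 46 and 66), MIR1226, MIR1227 and MIR1237 (positions 82 and 83), and groups of 1 hairpin are not independent. Both MIR1237 groups could be tested only through alignments that ran past the intron. With alignments within the intron alone, neither had a value in every pair of any day. At 31 d 3 of 10 tested groups were higher, MIR877 5p and 3p and MIR1229 3p, and 0 lower, against 0.912% and 3.56% of 53267 groups. The median log2 ratio of the tested mirtron groups was 2.30, 2.71 and 1.56 at 3, 13 and 31 d, against -0.13, 0.03 and -0.03 over all groups. With each table's own median subtracted, 0 of 7, 8 of 10 and 4 of 10 mirtron groups were higher, against 4.62%, 9.86% and 2.19% of all groups. At 3 d none of the 7 centred groups reached even an unadjusted limma p under 0.05.

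The 13 d count depended on single pairs. It was 5 without replicate 1, 2 without replicate 2 and 2 without replicate 3 of 13 d. The 31 d count was 1 without replicate 2 and 0 without replicate 3 of 31 d, and with each group's own variance alone the counts were 3 at 13 d and 0 at 31 d. Single alignments gave fewer calls: 0 of 20 tested at 3 d (5 at an unadjusted p under 0.05), 13 of 24 at 13 d (12 of them in MIR877) and 4 of 22 at 31 d (all in MIR877) were higher, against 2.89%, 4.91% and 0.204% of all alignments tested. 0 were lower, against 0.321%, 3.82% and 1.04%. For alignments the 13 d count was 2 without replicate 2 and 4 without replicate 3 of 13 d. The 31 d count was 0 without replicate 1 or 3 of 31 d and 8 without either pair of 3 d.

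Between days, 0 of the mirtron groups passed as deposited (7 tested against 3 d, 1 of them at an unadjusted limma p under 0.05 for 13 d minus 3 d). For MIR877 5p the difference of 13 d minus 3 d was 2.65 ± 1.26 (SE, limma adjusted p = 0.139) and that of 31 d minus 3 d 1.89 ± 1.26 (adjusted p = 0.286), where 1.05% and 2.32% of all groups were higher and 21.7% and 20% lower. After the table medians were subtracted the first was 3.72 ± 1.29 (adjusted p = 0.0278, 6.83% of groups higher) and the second 3.15 ± 1.29 (adjusted p = 0.0654, 11.9% higher). MIR1237 3p and MIR1227 3p, whose 31 d pairs lay below the others, had differences of 31 d minus 13 d of -1.30 ± 1.11 (adjusted p = 0.656) and -1.47 ± 1.10 (adjusted p = 0.614). In that contrast 0 of 22651 groups of any kind passed (0% in either direction), with 2266 at an unadjusted limma p under 0.05.

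The miR-17~92 cluster, 6 hairpins in 1 primary transcript that Drosha cuts, was set beside the mirtrons. At 3 d its 26 tested groups had a median log2 ratio of 1.29, with 0 called. At 13 d 7 of 21 were lower and 0 higher, where 9.12% of all groups were lower, with a median of -1.28. At 31 d 5 of 28 were lower and 0 higher, where 3.56% of all groups were lower, with a median of -1.04. The 1 named group of each arm with values in all 8 tables, 10 groups in all, gave the cluster's median in each table used next, and in replicate 3 of 3 d MIR877 5p, at 2.34, lay below that median of 2.88. The 2 hairpins MIR484 and MIR3615, whose precursors begin at a transcription start and need no Drosha cut, had positive means at every day, with 1 of 2 higher at 13 d.

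MIR877 5p minus the median of the miR-17~92 groups of the same table, a difference that a shift of the whole table does not touch, was 1.15 and -0.54 at 3 d, 5.59, 6.66 and 6.33 at 13 d, with 4.69, 4.89 and 5.71 at 31 d. Replicate 3 of 3 d was the only pair below 0. The mean over 8 tables was 4.31 ± 2.60 (SD, n = 8, above 0 in 7 of 8). Over the 6 tables of 13 d and 31 d it was 5.64 ± 0.77 (SD, n = 6, above 0 in 6 of 6), and 5.44 to 5.83 without 1 of these tables. MIR877 5p and the cluster were set side by side with earlier results of these data known, so the difference is given as a description, with no p.

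The other widely valued mirtron groups stood above the cluster too. In the later pairs the differences from the cluster's median were above 0 in 6 of 6 for MIR877 3p (3.25 to 5.55), MIR1226 3p (3.33 to 6.22), MIR1227 3p (2.46 to 5.87), MIR1237 3p (2.16 to 4.77) and MIR1226 5p (1.20 to 3.96), and in 5 of 5 for MIR1229 3p (2.14 to 5.95) and MIR1236 3p (1.89 to 4.55). At 3 d they were 0.81 and 0.35 for MIR1226 3p and 0.88 and -2.70 for MIR1226 5p, the 0.88 from its 24 and 27 nt forms only. Against the median of MIR484 and MIR3615, MIR877 5p was 0.17 and 1.04 lower on the log2 scale in the 2 pairs of 3 d, and 2.78, 2.39, 1.91, 2.91, 0.99 and 2.5 higher in the 6 later ones. These differences were not tested.

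**Figure D5:**
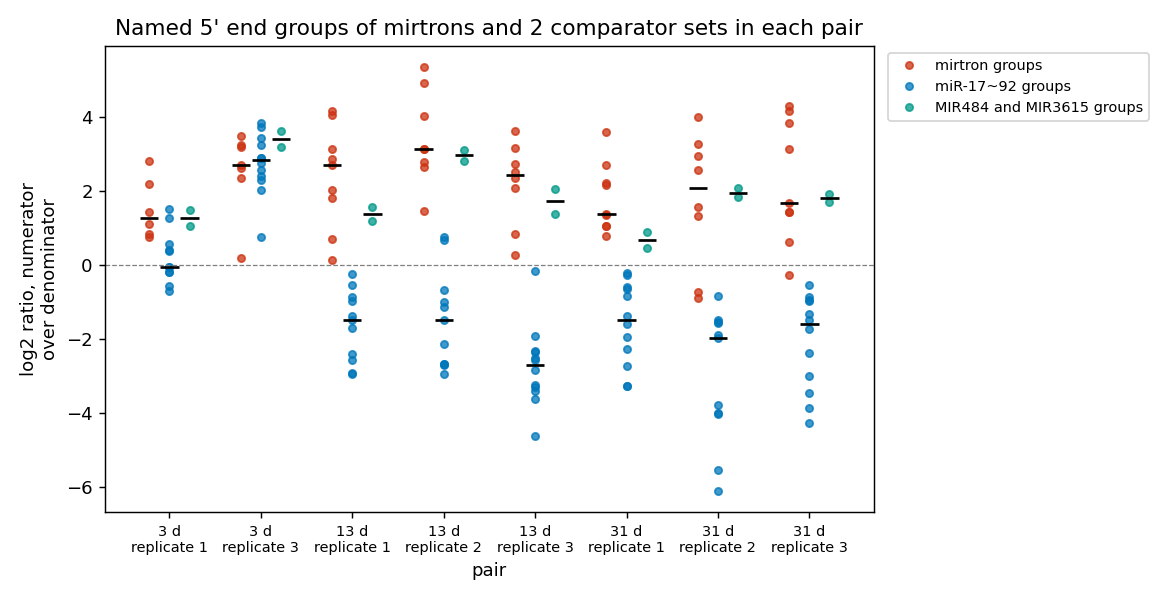
Log2 ratio of each named 5′ end group of the mirtrons (red), the miR-17~92 cluster (blue) and MIR484 and MIR3615 (green) in each of the 8 pairs, with the median of each set as a bar. In the pairs of 13 d and 31 d the mirtron medians lie above 0 and the cluster's below, and in replicate 3 of 3 d all 3 sets lie near each other.

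Fragments of the loop, the stretch between the arms that Dicer releases, were listed for MIR877. An alignment of 41 nt from position 25 to 65, longer than the 28 nt of the members, ends at the base before the annotated 3p arm.
MIR877 positions 25 to 65: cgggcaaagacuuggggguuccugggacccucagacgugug
It was listed in 7 tables, with ratios of 114.9 in replicate 1 of 3 d, 0.86, 6.54 and 0.38 at 13 d, with 1.28, 0 and 0 at 31 d. The values spread over both sides of 1. Shorter alignments of 19 to 24 nt began at positions 42 to 47 and ended at the same position 65. The group at position 46 had log2 ratios of 0.70, 3.18 and 4.05 at 13 d (mean 2.64 ± 0.84, SE, n = 3, limma adjusted p = 0.0253), and 0.93 and 2.05 in replicates 2 and 3 of 31 d. Its 13 d call was not made without replicate 3 of 13 d or with the group's own variance alone. In MIR1226 the 27 nt between the arms were listed in 4 tables, with ratios of 0, 8.16 and 1.26 at 13 d and 0 in replicate 2 of 31 d.

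Stacks were sets of at least 3 alignments of 20 to 24 nt with 1 5′ end and a ratio above 0 in every table. That length range only chose the stacks. Each value given here is that of the whole 5′ end group, the median over all its lengths above 0. By rank among the 764 stacks of the series, MIR877 5p, with 5 such alignments, stood at 4. Its mean log2 ratio over the 6 later pairs, by which the stacks were ranked, was 3.99. MIR1226 3p stood at 8 (3.20) and MIR877 at position 2 at 35 (1.96). With the ratio turned over, since its direction is not known, they stood at 761, 757 and 730. The 3 stacks outside the mirtrons most like MIR877 5p over the 8 tables began at 135416287 on the minus strand of chromosome 5, at 154003339 on the plus strand of chromosome X and at 101605127 on the plus strand of chromosome 8. Their mean absolute log2 difference from it was 0.55, 0.66 and 0.73, the smallest of 761 stacks. The first had 1.34 and 2.02 at 3 d, 3.74, 4.53 and 3.16 at 13 d, with 2.40, 2.5 and 3.82 at 31 d.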

How the data were processed

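Small RNAs were measured in 17 libraries of K562 cells. Size selection was 20 to 40 nt, per the labels' protocols. Bowtie2 2.2.9 and hg19 (GRCh37) are named in the submitters' processing notes. The 8 tables have no header. Their last column, the ratio used here, was deposited by the authors and equals the quotient of 2 scaled values of its row (largest relative difference 3.78e-13), and 32 other value columns carry no library name and enter no result. Starts count from 0 in the files and from 1 here.

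Alignments of 16 to 28 nt with 1 5′ end formed a group, valued by the median log2 ratio of its alignments above 0. Groups and alignments with a value in every pair of a day were tested against 0 in R 4.3.3 with limma 3.58.1 (1 mean a day, no replicate block, robust moderation, Benjamini-Hochberg over all features of that day), as deposited and minus the table median over groups with values in all 8 tables. On simulated data most changes of the sizes seen here were not called, so a group that did not pass is not shown to be unchanged. Hairpins, arms and introns came from RefSeq (GRCh38.p14) and GENCODE v29.

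The members, comparators and rules were chosen with earlier results of these data known. Named were, per arm, the group with values in the most tables (ties to more alignments, then the annotated end) and, per group, the alignment above 0 in the most tables (ties to more tables listed, then nearest 22 nt). Alternatives were centring, a replicate block, no moderation, 18 nt or longer, 20 to 24 nt only, values in all 8 tables, means of alignments, separate fits by day and fits without 1 pair.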

Additional observations from a re-analysis of the deposited data

Results flagged for a closer look

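The ratio of MIR877 5p differed between 13 d and 3 d once the table medians were subtracted, by 3.72 ± 1.29 on the log2 scale (SE, limma adjusted p = 0.0278). The test was of the difference itself. All 3 pairs of 13 d (4.15, 5.34 and 3.62 as deposited) lay above both pairs of 3 d (1.09 and 2.34). The difference was 3.08 to 4.66 over the 16 other settings. It did not pass without replicate 1 or 3 of 3 d (adjusted p = 0.154 and 0.0709), without replicate 2 or 3 of 13 d (0.152 and 0.0577), with the group's own variance alone (0.0649) or with a replicate block (0.064). As deposited it was 2.65 ± 1.26 (adjusted p = 0.139), and the table medians, which were higher at 3 d, move with it. Their part in the result was not tested.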

How the results depend on the processing

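No called mirtron arm changed direction under any setting. The sign of MIR1226 5p, which was not called, turned to -0.50 and -0.60 at 3 d when centred on 20 to 24 nt or on the table median, and it ran from -0.064 to 0.99 at 31 d without 1 pair of that day. Centring on 20 to 24 nt raised the 31 d values of MIR877 5p, MIR877 3p and MIR1229 3p to 4.30, 4.05 and 4.02. Without the tables of 13 d replicate 3 and 31 d replicate 2, the calls of MIR877 3p at 13 d and 31 d, of MIR1227 3p and MIR1237 3p at 13 d and of MIR1229 3p at 31 d were not made (limma adjusted p = 0.0655 to 0.152). Counts of called mirtron groups (1, 8 and 3 at 3, 13 and 31 d) moved by over 1.5 times as follows. At 3 d the count was 3 with values in all 8 tables, 2 without moderation, 2 with stacks only, and 0 when centred on the table median or on 20 to 24 nt, with each day alone or with a replicate block. Without moderation it was 3 at 13 d and 0 at 31 d, with stacks only 3 at 13 d, and without the tables of 13 d replicate 3 and 31 d replicate 2 it was 3 and 1. Relative to the table median, the 8 of 13 d became 3 under each of these and the 4 of 31 d became 0 without moderation and 2 without those tables. Without 1 pair the counts ran from 0 to 1, 2 to 8 and 0 to 4, and relative to the table median from 2 to 8 and 0 to 4 at 13 d and 31 d.

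For single alignments (0, 13 and 4), the count was 1 at 3 d at 18 nt or longer or centred by length and 3 with values in all 8 tables. At 13 d it was 21 centred by length and 5 without moderation. At 31 d it was 12 at 18 nt or longer, 7 with values in all 8 tables, 13 centred by length, 9 centred on the table median, 1 with a replicate block and 0 without moderation. Without 1 pair it ran from 0 to 1, 2 to 17 and 0 to 8. Between days, 1 group passed for 13 d minus 3 d with stacks only or centred, and 1 for 31 d minus 3 d without moderation. The MIR877 5p difference from miR-17~92 ran from 3.97 to 5.00 over 8 tables and from 5.44 to 5.83 over 6 without 1 table. The cause of these changes was not tested, except that a fit without a pair has fewer samples. Stacks, those 2 tables and the alternatives of the centred fit were added after seeing the data.

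The replicate numbers are not shown to pair the tables: same-numbered deviations from the day mean correlated at -0.35 to 0.17. With a replicate block 6 and 2 groups were called at 13 d and 31 d, and it ended the 3 d call of MIR1237 3p (adjusted p = 0.128) and the 31 d call of MIR1229 3p (adjusted p = 0.0702). Depth is not known from ratios, so a hairpin with few values is not shown to be absent, and leaving out ratios of 0 can raise a group's value. The lack of entries for alignments seen only in the numerator library can lower a group's value.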
